A study of Homo sapiens with 12 samples.

Results

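The comparison described here is palmitate treatment of control LM3 cells: all 6 libraries labelled shControl, 3 without and 3 with palmitic acid, out of 12 libraries in the series. LM3 is a lung-metastatic derivative of MDA-MB-231, an established human breast cancer line of mesenchymal, triple-negative type. Every group carries a short hairpin RNA, here the control hairpin (shControl), so no library stands for cells without a hairpin. The study asked how the acyl-CoA synthetase ACSL5 bears on spread to the lung, and its other 6 libraries (a hairpin against ACSL5, with and without palmitate) enter only where the size of a response is compared between the 2 kinds of cells. The cells grew in DMEM with 10% fetal bovine serum, and polyadenylated RNA was sequenced. Neither dose, duration nor carrier of palmitate was given in the sources used here, nor what the untreated cells received, so effects of the fatty acid and of its carrier cannot be told apart. Nothing in the labels says whether the 3 libraries of a group are separate cultures, so p-values measure the spread between these libraries, which may be technical.

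Palmitate is the saturated fatty acid that is most abundant in blood. Cells activate it to palmitoyl-CoA, which enters mitochondria through the carnitine shuttle for oxidation or is built into triglycerides, phospholipids and ceramides. Fatty acids and their derivatives are ligands of the PPAR nuclear receptors, which switch on genes of fatty acid oxidation and storage. An excess of saturated acyl chains is known to load the endoplasmic reticulum membrane, and in many cell types it is followed by the unfolded protein response, the integrated stress response and inflammatory signalling through NF-kB.

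The libraries held between 17119570 and 18680316 counted reads in the untreated group and between 18014888 and 18614091 with palmitate. On the first principal component of the 6 libraries, which took 42.6% of the variance, the groups stood apart. The second took 15.9% and set palmitate replicate 3, at 24, apart from the other palmitate libraries, at -11.2 and -13.4. Of the markers, 10 of 10 mesenchymal MDA-MB-231 genes were measured and summed to between 9930 and 10100 CPM, which are counts scaled to a common library size in untreated and between 8890 and 9110 with palmitate. Luminal and epithelial markers summed to between 21.8 and 24.4 CPM in untreated and between 17.6 and 19.6 with palmitate, with CDH1 at 2 counts in all in each group. Immune markers summed to between 35.3 and 38.4 CPM, carried by the lysosomal protein CD68, with PTPRC, CD3E and TYROBP at 0. Endothelial markers summed to between 3.85 and 6.02 CPM in untreated and between 2.1 and 3 with palmitate. Lung epithelial markers summed to between 44.5 and 47.6 CPM in untreated and between 36.7 and 41.6 with palmitate, carried by NKX2-1, with SFTPC, SCGB1A1 and FOXJ1 at 0. Adipocyte markers stayed under 1 CPM, with ADIPOQ, LEP and FABP4 at 0. Fibroblast markers summed to between 21.1 and 23.5 CPM in untreated and between 13.1 and 14.5 with palmitate. They were carried by PDGFRB (log2 change -1.11) and COL1A1, while DCN and LUM had at most 2 counts in a group. The fall without overlap between the groups was not particular to fibroblast markers. It was also seen for the mesenchymal, luminal and epithelial, endothelial and lung epithelial sums. In bulk RNA, fewer cells of one type and less RNA per cell cannot be told apart.

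Palmitate was followed by small changes in many genes and large changes in few. Of 14071 genes tested with edgeR's quasi-likelihood test, 2310 were higher and 2116 lower at an adjusted p under 0.05, which is 16.4% and 15% of the genes tested, or 31.5% in either direction. At least a 2-fold change was seen for 87 of the higher and 154 of the lower genes, and 3618 calls, 81.7% of them, were smaller than 0.5 on the log2 scale. Groups did not overlap for 6102 tested genes (43.4%). The 12 largest rises and 12 largest falls described below were chosen among such genes, so their lack of overlap is no added support. The split between directions rests on the scaling: with TMM scaling 52.2% of the calls were higher, and with library sizes alone 35.5% were, or 1568 higher and 2845 lower genes. Changes below about 0.1 on the log2 scale are therefore not read for direction here. Without palmitate replicate 3, 64 genes were at least 2-fold higher and 187 at least 2-fold lower. Below, a level is a TMM-scaled CPM value, given for the 3 libraries in order of replicate number, and a change is the fitted log2 fold change of palmitate against untreated with its standard error (SE).

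**Figure D1:**
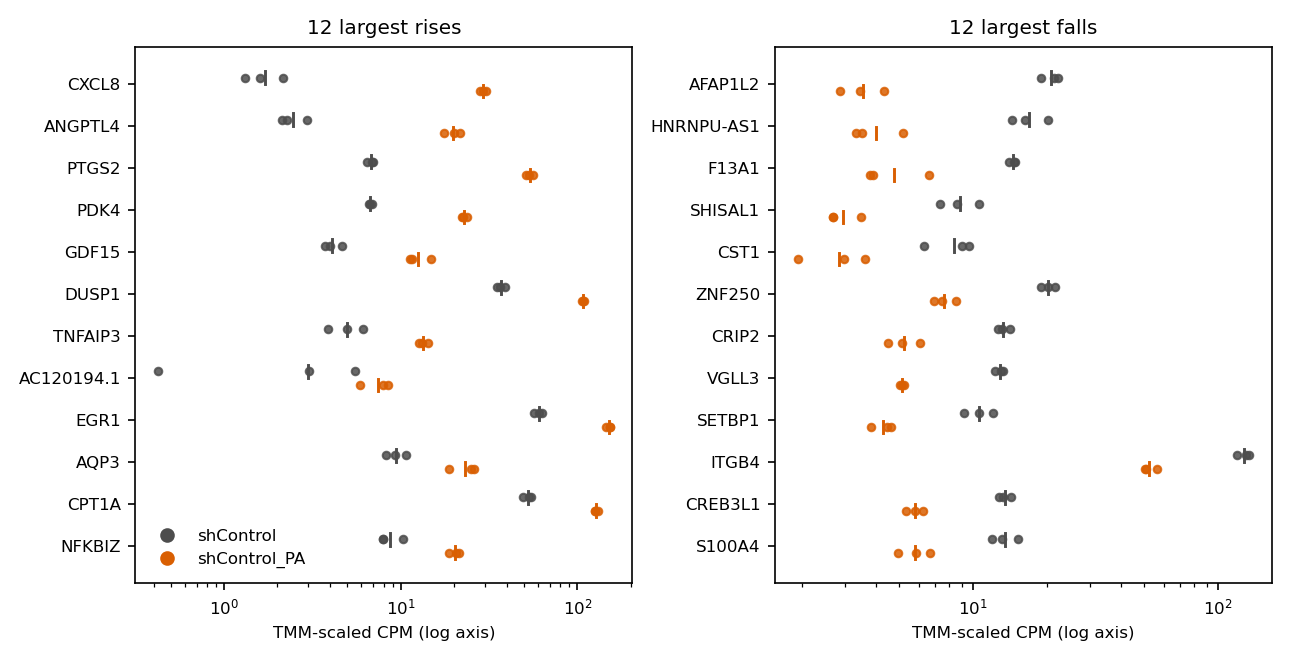
Levels (TMM-scaled CPM, log axis) in each of the 6 libraries for called genes averaging at least 5 CPM, the 12 with the largest rise and the 12 with the largest fall. Grey points are untreated and orange points palmitate libraries, and the bar marks the group mean: for CXCL8, ANGPTL4 and PTGS2 the groups lie farthest apart. The 24 genes were chosen for groups that do not overlap.

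**Figure D2:**
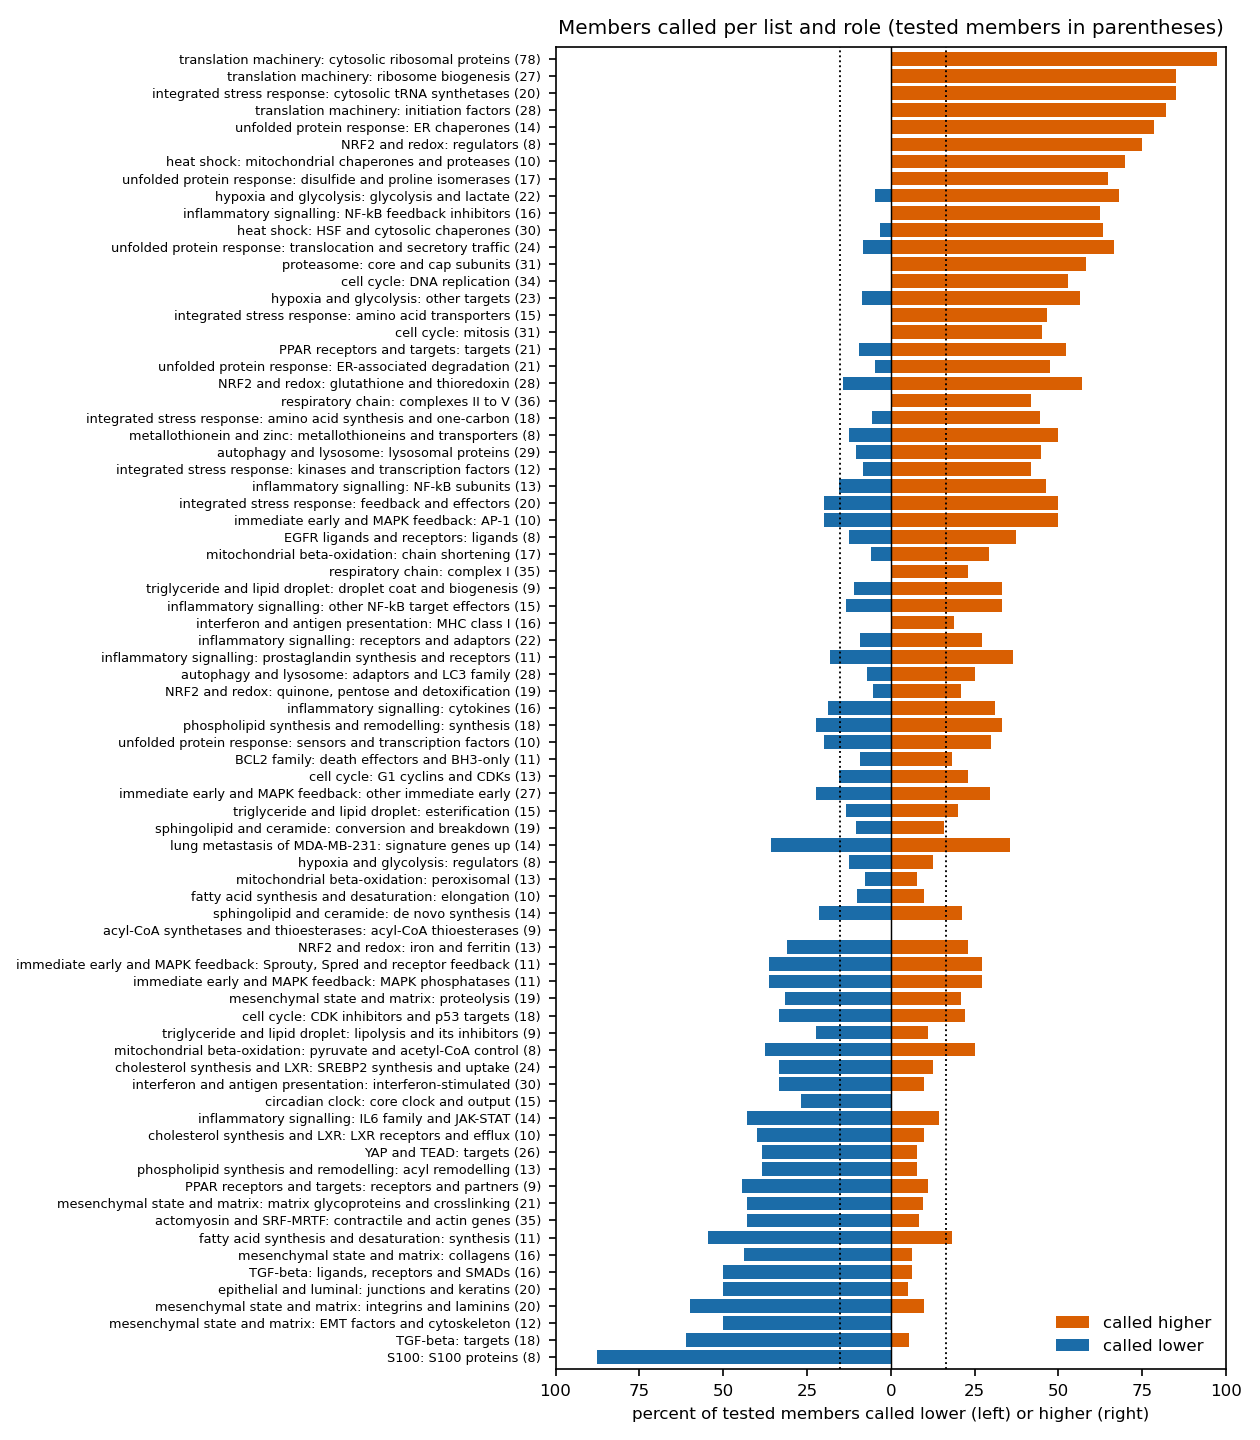
Percent of the tested members of each gene group that were called higher (right) or lower (left) with palmitate, for groups with at least 8 tested members. The dotted lines mark the share of all tested genes, 16.4% higher and 15% lower: ribosomal proteins, initiation factors and tRNA synthetases lie far beyond the first line, and S100 proteins, TGF-beta targets and integrins with laminins far beyond the second.

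Fatty acid oxidation and storage genes that answer to PPAR receptors were higher with palmitate. Of 21 tested PPAR targets, 11 were higher and 2 lower, with a median change of 0.51 against -0.0020 over all genes tested, and their summed level went from 735 ± 22.9 to 1098 ± 15 CPM (SD, n = 3 each; 2-sided exact permutation p = 0.1, the smallest that 3 against 3 allows). ANGPTL4 (chromosome 19, 8363289 to 8374373, GRCh38), a secreted inhibitor of lipoprotein lipase, stood at 2.12, 2.26 and 2.96 CPM in untreated and at 20.1, 17.5 and 21.6 CPM in palmitate libraries. It rose 8.02-fold, a log2 change of 3.00 (SE 0.15, adjusted p = 1.26e-11). PDK4 (chromosome 7, 95583499 to 95596491), the kinase that shuts off pyruvate dehydrogenase when fat is burned, had 6.58, 6.67 and 6.87 CPM without and 22.5, 23.9 and 22.3 CPM with palmitate, a change of 1.77 (SE 0.10, adjusted p = 9.27e-11). Both genes lay several times higher in every palmitate library than in any untreated one. CPT1A (chromosome 11, 68754620 to 68844410), the outer carnitine palmitoyltransferase and the rate-setting step of mitochondrial import, had 49.1, 55 and 53 CPM and then 127, 131 and 126 CPM, a 2.44-fold rise (log2 1.29, SE 0.05, adjusted p = 1.69e-13). PLIN2, the coat protein of lipid droplets, went from 40.2, 45.9 and 44.6 to 88.5, 88.3 and 90.7 CPM (log2 1.03). G0S2, which inhibits the triglyceride lipase ATGL, went from 31.6, 36.8 and 36.4 to 66.0, 66.8 and 71.9 CPM (log2 0.96). Neither gene's groups overlapped.

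The receptors themselves moved the other way or little. Of 9 tested receptors and partners, PPARA changed by -0.35, PPARGC1A by -0.49, PPARG by -0.21 and NCOA1 by -0.35, while PPARD alone was higher, by 0.18. PPARA stood at 37.2, 36.1 and 35.2 CPM without and 26.7, 27.9 and 30.7 CPM with palmitate. The count of 1 higher and 4 lower in this group became 0 and 2 without palmitate replicate 2, with which the calls of PPARD, PPARG and PPARGC1A are lost. PPARG also lost its call without untreated replicate 2, PPARGC1A without replicate 3 of either group, and PPARD without untreated replicate 1 or 3 and with library sizes alone. The PPAR response element (the direct repeat DR1) was searched by name on both strands. The promoter window ran from 250 bases before to 50 after a RefSeq start. Members of the whole PPAR list, receptors included, and of the fatty acid oxidation list were counted together. A match lay in 2 of 15 higher members with a window (13.3%) and in 0 of 36 other tested members. It also lay in 2.37% of the 10503 tested genes with a window and in 1.62% of all 35116 windows. ACAA2, the mitochondrial thiolase whose level went from 55.0, 54.3 and 59.7 to 83.8, 84.7 and 81.2 CPM, holds one, shown because it is a member that rose with the group. It is printed in capitals with 15 bases on each side (chr18:49813582-49813624, minus strand).
ACAA2: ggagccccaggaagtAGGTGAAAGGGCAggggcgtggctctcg

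Of 45 tested fatty acid oxidation genes, CPT1A included, 22.2% were higher and 15.6% lower. These shares are near the 16.4% and 15% of all genes tested, so they do not set the list apart. Changes at single steps are given here. In the carnitine shuttle, SLC25A20, the carnitine-acylcarnitine carrier, rose by 0.61, and CPT1C and CRAT fell by 0.56 and 0.43. Among 17 tested chain-shortening enzymes 5 were higher and 1 lower: the very-long-chain acyl-CoA dehydrogenase ACADVL, from 181, 177 and 187 to 311, 312 and 299 CPM (log2 0.76), ACAA2 (0.56), and ETFA (0.28) among the electron carriers. With library sizes alone that count was 4 and 3. Peroxisomal oxidation had 1 higher and 1 lower gene of 13, with ECH1 at 0.50. At the branch point between pyruvate and fat, the kinases PDK4 and PDK1 rose (1.77 and 0.55), the opposing phosphatases PDP1 and PDP2 fell by 0.35 and 0.49, and ACACB, which makes the malonyl-CoA that blocks CPT1, fell by 0.39. The calls of 2 of these low-level genes rest on single libraries: that of CPT1C was lost without palmitate replicate 1, and that of ACACB without untreated replicate 2 or palmitate replicate 3.

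Genes of fatty acid synthesis were more often lower than higher, and uptake and desaturation genes went both ways. Of 11 tested genes of fatty acid synthesis 6 were lower and 2 higher, with a median of -0.17. The 2 higher became 1 without untreated replicate 1 or 3 or palmitate replicate 1 or 3, and 0 without palmitate replicate 2 or with library sizes alone. SREBF1, the transcription factor of the pathway, stood at 78.5, 85.6 and 87.7 CPM without and 64.8, 65.6 and 65.8 CPM with palmitate, a change of -0.36. INSIG1, which holds SREBP in the endoplasmic reticulum, fell by 0.50, and ACACA, acetyl-CoA carboxylase 1, by 0.31. The groups did not overlap in these 3 genes. Of 5 tested desaturation genes 1 was higher and 2 lower. SCD, the stearoyl-CoA desaturase that turns saturated into monounsaturated chains, had 1256, 1281 and 1289 CPM and then 1216, 1197 and 1221 CPM, a change of -0.07 that is too small to be read for direction and whose call was lost without untreated replicate 2 or palmitate replicate 2. Its relative SCD5 fell by 0.30, and FADS1, the delta-5 desaturase of polyunsaturated fatty acids, rose by 0.24. Among 7 tested uptake genes 3 were higher, led by SLC27A3 (0.80), and 3 lower, among them the receptor LRP1 (-0.62) and the transporter SLC27A1 (-0.53). ACSL5, the synthetase that gives the study its name, stood at 142, 144 and 146 CPM without and 190, 195 and 190 CPM with palmitate, a rise of 0.41 (SE 0.03, adjusted p = 2.47e-08). ACSF2, another synthetase, fell by 0.78.

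Cholesterol genes had 3 higher and 8 lower members of 24, with a median of 0.02 whose sign turned with library sizes alone. The lower ones include MSMO1, a sterol demethylase, from 211, 214 and 206 to 167, 163 and 174 CPM (-0.32). Without untreated replicate 3 or palmitate replicate 2, 5 were lower. Among the LXR genes, ABCA1, the cholesterol exporter, stood at 3.83, 3.69 and 3.44 CPM in untreated and 1.15, 1.02 and 1.59 CPM in palmitate libraries, a change of -1.54 (SE 0.26, adjusted p = 0.000152). MYLIP, a ubiquitin ligase, fell by 0.86. ABCA1 and MYLIP thus lay lower in every palmitate library, while the receptor NR1H2 rose by 0.38.

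Complex lipids changed gene by gene. Of triglyceride and lipid droplet genes 21.2% were higher and 15.2% lower, and of sphingolipid genes 18.2% and 15.2%. These shares are near the 16.4% and 15% of all genes tested, so they do not set these lists apart. Phospholipid genes had 22.6% higher and 29% lower. Triglyceride esterification had 3 higher and 2 lower of 15, and lipolysis 1 and 2 of 9, the lower ones including PNPLA3 (-1.58), which rests on 55 counts in all in the untreated and 18 in the palmitate libraries. In phospholipid synthesis the choline and ethanolamine kinases CHKA (0.51), CHKB (0.45) and ETNK1 (0.49) rose, and PCYT2 and CDS1 fell by 0.29 and 0.54. Of the exons of CHKB, 72.5% overlap another gene and strand-specific counting is not stated, so its reads cannot be told apart from that gene's. The call of CDS1 was lost without any 1 of 5 libraries, all but palmitate replicate 2, and that of PNPLA3 without untreated replicate 1 or 3 or palmitate replicate 2. Acyl remodelling had 1 higher and 5 lower of 13, among the latter LPCAT2 (-0.32). In ceramide synthesis SPTLC3, a subunit of the first enzyme that uses palmitoyl-CoA, went from 33.1, 35.7 and 32.5 to 21.2, 20.9 and 19.5 CPM (-0.72), and CERS4 changed by -1.59 on 110 and 36 counts in all, a call lost without palmitate replicate 1. GLA, a lysosomal galactosidase that breaks down glycolipids, rose by 0.41.

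The largest change of any named gene was in an inflammatory chemokine. CXCL8 (chromosome 4, 73740506 to 73743716), the neutrophil attractant interleukin-8, stood at 1.60, 1.32 and 2.17 CPM without and at 30.4, 28.2 and 29.4 CPM with palmitate, in sum 93 and 1590 counts. It rose 17.1-fold, a log2 change of 4.10 (SE 0.14, adjusted p = 3.79e-14), and over the alternatives run the change ranged from 3.95 to 4.32. PTGS2 (chromosome 1, 186671791 to 186680427), the inducible cyclooxygenase of prostaglandin synthesis, had 6.87, 6.95 and 6.45 CPM and then 56.3, 53.4 and 51.4 CPM, a 7.95-fold rise (log2 2.99, SE 0.08, adjusted p = 2.12e-15). The lowest palmitate library was thus far above the highest untreated one for both genes. CXCL2, a related chemokine, went from 0.458, 0.276 and 0.634 to 2.96, 2.20 and 3.23 CPM (log2 2.59, 25 and 152 counts in all). Only these 2 chemokines of 6 tested passed the test. CXCL3 (0.94, adjusted p = 0.0846) and CXCL1 (1.00, adjusted p = 0.287; 18 and 36 counts) did not, and CXCL1 did without untreated replicate 3.

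Other cytokines were measured at low levels. GDF15, a stress-induced cytokine, stood at 3.72, 4.63 and 3.96 CPM without and 11.6, 14.8 and 11.3 CPM with palmitate (log2 1.61). CSF2 (1.61, 64 and 194 counts), IL1A (1.28, 38 and 92 counts) and IL1B (1.36, 24 and 62 counts), which encode GM-CSF and the 2 forms of interleukin-1, rose with groups that did not overlap. The call of IL1B was lost without untreated replicate 1 or 3 and without palmitate replicate 1 or 3. IL6 had 55 and 30 counts and did not pass the test (-0.86, adjusted p = 0.125). Lower cytokines were TNFSF15 (-0.99), IL12A (-0.86) and CLCF1 (-0.44). The prostaglandin synthase PTGES rose by 0.67. The prostaglandin carrier SLCO2A1 changed by -2.18 (65 and 14 counts). The receptor PTGER2 changed by -1.06 (179 and 85 counts) and was not called without untreated replicate 2. Of 22 tested receptors and adaptors 6 were higher, among them IRAK2 (0.60), TLR3 (0.47) and TLR6 (0.42), while TLR5, the flagellin receptor, fell by 1.25. In the IL6 and JAK-STAT group 2 of 14 were higher and 6 lower. SOCS3, the feedback inhibitor of that pathway, stood at 66.7, 70.4 and 70.1 CPM and then at 34.4, 30.9 and 30.0 CPM, a change of -1.12 (SE 0.06, adjusted p = 4.57e-11).

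NF-kB raises its own inhibitors, and these rose as a group: 10 of 16 tested were higher and 0 lower, with a median of 0.29. TNFAIP3 (A20, which removes the ubiquitin chains that carry the signal) had 4.98, 6.12 and 3.86 CPM without and 12.7, 14.2 and 13.1 CPM with palmitate (log2 1.42, SE 0.15, adjusted p = 4.77e-07). NFKBIA, which encodes IkB-alpha, the protein that keeps NF-kB in the cytoplasm, went from 33.1, 30.2 and 31.6 to 64.4, 61.9 and 65.3 CPM (log2 1.02). The groups of both genes lay apart. NFKBIZ (1.21) and BIRC3 (1.06) rose as well. Of 13 subunits and kinases 6 were higher and 2 lower, led by RELB, from 4.92, 3.86 and 4.55 to 10.4, 7.95 and 10.7 CPM (log2 1.13), with NFKB2 at 0.38 and the kinase MAP3K14 at -0.56. Without palmitate replicate 1 that count was 4 and 1. MMP1, the interstitial collagenase, changed by 1.74 on 62 and 208 counts, and PLAUR and PLAU, the urokinase receptor and urokinase, by 0.36 and 0.30, the latter with 31.1% of its exons shared with another gene.

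The NF-kB site (searched by name, both strands) was present in the window of 16 of 37 higher members of the inflammatory lists (43.2%), of 18 of 58 other tested members (31%), of 17.2% of the 10503 tested genes with a window and of 11.3% of all windows. The windows of TNFAIP3, NFKBIA and CXCL2, 3 members that rose, show it in capitals, read 5′ to 3′ along the gene's strand. They lie at chr6:137867177-137867216 (plus), chr14:35404806-35404845 (minus) and chr4:74099249-74099288 (minus).
TNFAIP3: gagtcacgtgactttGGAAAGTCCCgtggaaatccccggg
NFKBIA: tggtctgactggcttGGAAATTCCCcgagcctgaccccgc
CXCL2: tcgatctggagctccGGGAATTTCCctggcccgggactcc
A match is a description of the letters, and factor binding was not measured.

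Immediate early genes, which growth factor and stress kinases switch on within minutes, split in direction. EGR1 (chromosome 5, 138465490 to 138469315), a zinc finger factor, stood at 63.5, 57.1 and 61.0 CPM without and 146, 153 and 152 CPM with palmitate, a rise of 1.31 (SE 0.04, adjusted p = 5.26e-14). DUSP1 (chromosome 5, 172768090 to 172771195), the phosphatase that turns off p38 and JNK, went from 34.9, 38.9 and 36.6 to 108, 109 and 106 CPM (log2 1.55, SE 0.05, adjusted p = 2.7e-14). Both were higher in every palmitate library by more than 2-fold. Of 10 tested AP-1 genes 5 were higher and 2 lower: FOSB (1.57), ATF3 (0.93), FOS (0.46) and JUND (0.45) rose, and JUN and FOSL1 fell by 0.20 and 0.18. The call of FOS was lost without replicate 1 or 2 of either group and with DESeq2. Among 11 MAPK phosphatases 3 were higher and 4 lower. DUSP4, DUSP5 and DUSP6, which act on ERK, fell by 0.31, 0.57 and 0.46, as did the ERK feedback inhibitors SPRY1 (-0.46) and SPRY4 (-0.34). For DUSP6 40.5% of exon bases overlap another gene. The AP-1 motif, TGANTCA, was in 1 of 16 windows of higher members (6.25%) and 3 of 30 of the others (10%), against 7.25% of tested genes. EGFR ligands had 3 higher and 1 lower of 8, with TGFA at 0.44, and of the receptors ERBB3 fell by 1.28.

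EGR1 is a textbook target of serum response factor, whose binding site is the CArG box, here searched by name on both strands. The box was found in the window of 2 of 16 higher immediate early members (12.5%) and 1 of 30 other members (3.33%). Among tested genes with a window the share was 1.6%, and among all windows 1.29%. EGR1 holds more than one, of which these are shown in capitals (chr5:138465359-138465398 and chr5:138465381-138465420, plus strand).
EGR1 upstream copy: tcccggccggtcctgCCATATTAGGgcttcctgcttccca
EGR1 downstream copy: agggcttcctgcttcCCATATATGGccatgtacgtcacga

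The unfolded protein response restores folding in the endoplasmic reticulum through the sensors IRE1, PERK and ATF6. Chaperones of the compartment rose: 11 of 14 tested were higher and 0 lower, with a median of 0.30, and their summed level went from 5008 to 6511 CPM. HSPA5 (chromosome 9, 125234853 to 125241330), the master chaperone BiP, had 923.7, 946.6 and 940.9 CPM without and 1444, 1414 and 1400.0 CPM with palmitate (log2 0.60, SE 0.02, adjusted p = 1.99e-13). HSP90B1, the HSP90 of the compartment, went from 871, 845 and 836 to 1114, 1128 and 1124 CPM (0.40), and the lectin chaperone CANX from 1530, 1530 and 1502 to 1926, 1956 and 1975 CPM (0.36). The 2 groups were apart in each of these genes. Disulfide and proline isomerases had 11 higher and 0 lower of 17, led by P4HB (0.39) and FKBP14 (0.37). In degradation of misfolded proteins 10 of 21 were higher and 1 lower, led by HERPUD1, from 82.6, 97.1 and 93.0 to 145, 139 and 137 CPM (0.63). Translocation and secretory traffic had 16 higher and 2 lower of 24, including the channel subunit SEC61A1 (0.31). Of the 10 sensors and factors 3 were higher and 2 lower. XBP1 rose by 0.26, and CREB3L1, from 12.8, 13.2 and 14.3 to 6.25, 5.30 and 5.81 CPM, fell by 1.21. The sensor genes ERN1 (IRE1), EIF2AK3 (PERK) and ATF6 did not pass the test. Without untreated replicate 2 or palmitate replicate 3 the count was 2 and 1. Without untreated replicate 3 or palmitate replicate 2 it was 3 and 1.

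The ER stress element, to which ATF6 and NF-Y bind, was found by name in the window of 7 of 45 higher members of this list (15.6%), of 1 of 31 other tested members (3.23%), of 0.152% of tested genes and of 0.0769% of all windows. The leading chaperones hold it in capitals, at chr9:125241376-125241424 on the minus and chr12:103930201-103930249 on the plus strand.
HSPA5: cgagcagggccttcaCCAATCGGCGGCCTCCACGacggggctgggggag
HSP90B1: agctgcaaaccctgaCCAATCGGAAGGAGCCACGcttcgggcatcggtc

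In the integrated stress response, kinases that sense stress phosphorylate eIF2 and so raise translation of ATF4, which acts on amino acid genes. Of 12 tested kinases and factors 5 were higher and 1 lower. DDIT3, the factor CHOP, stood at 5.72, 8.16 and 7.93 CPM without and 18.7, 14.5 and 12.7 CPM with palmitate (log2 1.07, with 39.6% of exon bases shared with MARS1). ATF3 went from 8.01, 6.56 and 6.29 to 12.5, 13.1 and 14 CPM (0.93), ATF5 rose by 0.48 and CEBPB by 0.39, and ATF4 itself had a value of 0.06. NUPR1 was called at 1.21 on 31 and 72 counts, a call lost with DESeq2, without replicate 2 of either group, without untreated replicate 3 and without palmitate replicate 1. Feedback genes had 10 higher and 4 lower of 20: PPP1R15A (GADD34, which restores translation) went from 73.7, 82.8 and 82.7 to 151, 155 and 147 CPM (0.92), SESN2 rose by 0.95, TRIB3 by 0.64 and DDIT4 by 0.64. For DDIT4 41.2% of exon bases are shared with an antisense gene. Amino acid transporters had 7 higher and 0 lower of 15, led by SLC3A2, the heavy chain of several of them, from 160, 164 and 167 to 265, 263 and 258 CPM (0.68), and SLC7A5 (0.38), SLC1A5 (0.31) and the cystine importer SLC7A11 (0.30). Amino acid synthesis had 8 higher and 1 lower of 18, and 17 of 20 cytosolic tRNA synthetases were higher with a median of 0.14, a count of 9 with library sizes alone.

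The ATF4 composite element TGATGNAA was in the window of 11 of 36 higher members of this list (30.6%), of 9 of 29 other tested members (31%), of 2.74% of tested genes and of 3.62% of all windows. Its share was thus as high in the members that were not called higher. SLC1A5, a glutamine transporter, and ASNS, asparagine synthetase, which had a change of 0.21, hold it at chr19:46784889-46784926 and chr7:97872454-97872491, both on the minus strand.
SLC1A5: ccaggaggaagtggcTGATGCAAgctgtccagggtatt
ASNS: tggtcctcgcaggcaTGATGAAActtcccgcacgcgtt

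NRF2 is the master factor of antioxidant genes and is freed when SQSTM1, the autophagy adaptor p62, binds its inhibitor KEAP1. SQSTM1 (chromosome 5, 179806398 to 179838078) stood at 317, 328 and 330 CPM without and 680, 677 and 654 CPM with palmitate, a rise of 1.04 (SE 0.03, adjusted p = 2.12e-15), with 22.0% of its exons shared with MRNIP. The ferritin chains that store iron rose with it. FTL (chromosome 19, 48965301 to 48966878) went from 501, 506 and 526 to 931, 927 and 936 CPM (0.87, SE 0.03, adjusted p = 6.45e-15), and FTH1 from 584, 596 and 630 to 982, 982 and 993 CPM (0.71), of which 62.4% of exon bases overlap BEST1. No palmitate library overlapped the untreated range in these genes. The iron importer TFRC rose by 0.36. Of 13 tested iron and ferritin genes these 3 were higher and 4 were lower, among them BLVRA, IREB2 and FBXL5, with a median of -0.02. With library sizes alone 5 were lower. Glutathione and thioredoxin genes had 16 higher and 4 lower of 28, led by TXNIP (0.67), TXNRD1, from 464, 484 and 466 to 697, 694 and 705 CPM (0.57), and MGST1 (0.50). With library sizes alone 11 were higher and 6 lower, and without untreated replicate 3 or palmitate replicate 1 only 2 were lower. NQO1, a standard NRF2 target, went from 403, 414 and 412 to 550, 561 and 563 CPM (0.45), while HMOX1 had 13.6, 16.7 and 16.7 and then 18.8, 20.2 and 17.4 CPM and did not pass (0.26, adjusted p = 0.0553). Of 8 tested regulators 6 were higher, 3 with library sizes alone, while NFE2L2, the gene of NRF2, did not pass (0.11, adjusted p = 0.0592). The antioxidant element, TGACNNNGC, was in 5 of 24 windows of higher members (20.8%) and 10 of 37 of the others (27%), against 19.4% of tested genes.

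**Figure D3:**
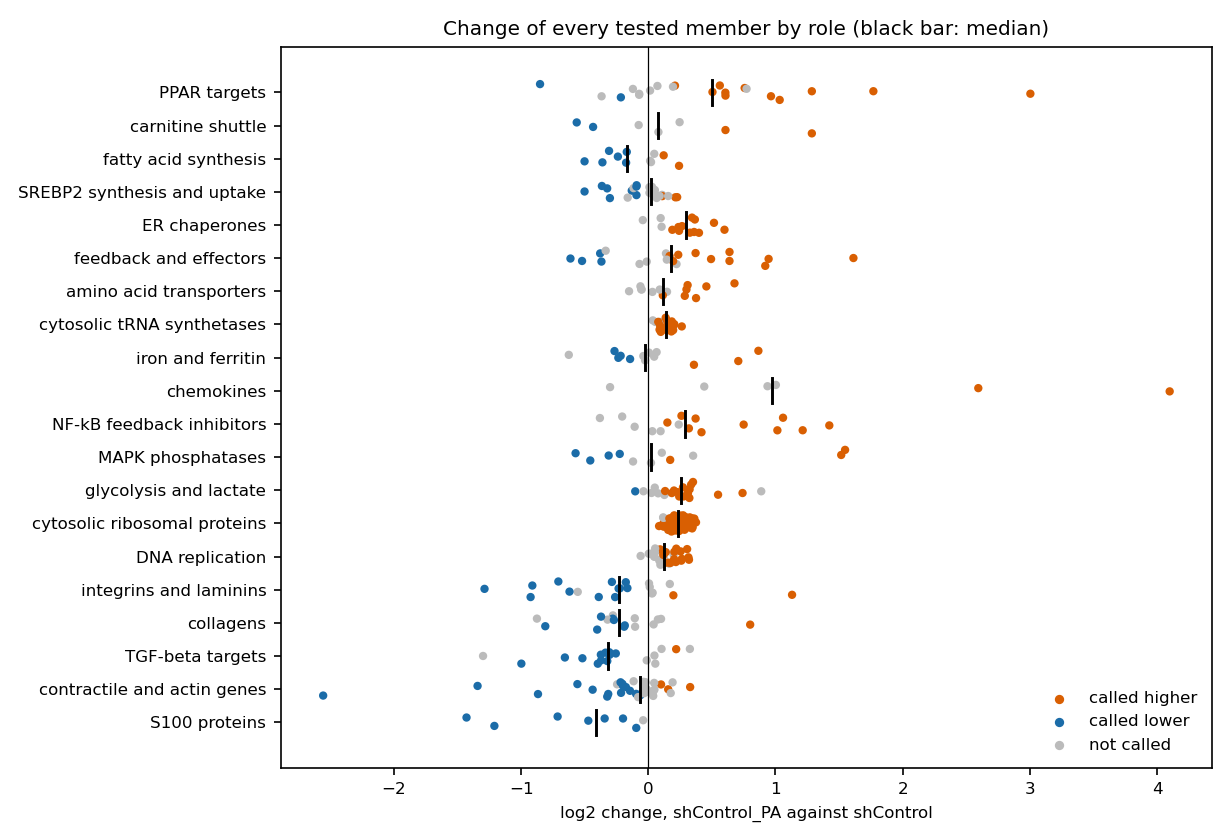
Change (log2, palmitate against untreated) of every tested member in 20 gene groups, 1 point per gene, with the group's median as a black bar. Ribosomal proteins lie in a narrow band around their median of 0.23, while chemokines and PPAR targets spread from values near 0 to the rises of CXCL8 (4.10) and ANGPTL4 (3.00).

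Genes that hypoxia raises were higher, while HIF1A fell by 0.24. Glycolysis and lactate genes had 15 higher and 1 lower of 22, with a median of 0.26, and their summed level went from 17073 to 20318 CPM. LDHA, lactate dehydrogenase A, stood at 1715, 1753 and 1754 CPM and then at 2226, 2200 and 2238 CPM (0.35), and SLC16A3, the lactate exporter MCT4, at 148, 141 and 153 and then 247, 246 and 246 CPM (0.74). The other hypoxia targets had 13 higher and 2 lower of 23: the prolyl hydroxylase P4HA1 (0.71), NDRG1 (0.55), VEGFA (0.49), BNIP3 (0.49) and ADM, from 3.43, 2.37 and 3.70 to 7.13, 5.75 and 6.08 CPM (0.99). Some of these genes, such as DDIT4 and VEGFA, also stand in the integrated stress list.

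Cytosolic and mitochondrial chaperones rose by modest amounts. Of 30 heat shock factors and cytosolic chaperones 19 were higher and 1 lower: HSPA8, the constitutive HSP70, went from 1920, 1979 and 1986 to 2443, 2424 and 2456 CPM (0.32), and HSPA1B and HSP90AA1 rose by 0.32 and 0.30. In the mitochondrion 7 of 10 were higher, led by the chaperonin HSPD1, from 683, 699.7 and 694 to 939, 969 and 967 CPM (0.47), and its partner HSPE1 (0.35). That count was 4 with library sizes alone and also 4 without palmitate replicate 1. The cytosolic genes had 14 higher and 3 lower with library sizes alone. The heat shock element, searched by name, was in 6 of 22 windows of higher members (27.3%), 2 of 12 of the others (16.7%) and 0.505% of tested genes, and HSPA8 holds it in capitals (chr11:123062339-123062381, minus strand).
HSPA8: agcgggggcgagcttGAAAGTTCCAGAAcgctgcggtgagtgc
Proteasome subunits had 18 higher and 0 lower of 31, and 12 and 0 with library sizes alone. Lysosomal proteins had 13 higher and 3 lower of 29, with the cathepsin CTSD at 0.30, and 8 and 6 with library sizes alone. Autophagy genes apart from SQSTM1 changed in both directions, with ULK1 at 0.42 and ATG16L1 at -0.31 among 7 higher and 2 lower of 28, a count of 4 and 8 with library sizes alone. Without untreated replicate 2 or palmitate replicate 3 the count was 4 and 2.

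With TMM scaling the translation machinery was higher almost throughout. Of 78 tested cytosolic ribosomal proteins 76 were higher and 0 lower, with a median change of 0.23, and their summed level went from 51690.4 ± 611 to 60343.2 ± 1710 CPM (SD, n = 3 each; 2-sided exact permutation p = 0.1, the smallest possible). RPLP0, a stalk protein of the large subunit, stood at 1890, 1938 and 1985 CPM without and 2470, 2507 and 2427 CPM with palmitate (0.35). Ribosome biogenesis had 23 higher and 0 lower of 27: the snoRNP proteins NOP58 (0.50) and NOP56 (0.36), RRP12 (0.50) and PES1 (0.40). Of 28 initiation factors 23 were higher and 0 lower, led by the helicase EIF4A1 (0.36, with 48.6% of exon bases shared with another gene), EIF5A (0.35) and EIF1 (0.34). With library sizes alone 74 ribosomal proteins, 19 biogenesis genes and 16 initiation factors were higher. The median of the initiation factors was then 0.09. ODC1, the rate-limiting enzyme of polyamine synthesis, went from 208, 209 and 217 to 340, 337 and 339 CPM (0.68).

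DNA replication had 18 higher and 0 lower of 34, among them POLD1 (0.32) and RRM2 (0.31), and 11 higher with library sizes alone. Mitosis had 14 higher and 0 lower of 31, led by MYBL2, from 136, 138 and 134 to 185, 195 and 188 CPM (0.48). This count was 6 with library sizes alone and 8 without palmitate replicate 1. Of the CDK inhibitors and p53 targets GADD45A rose by 0.66 and PLK2 by 0.41, and CDKN1B (p27) and MDM2 fell by 0.46 and 0.29. In the BCL2 family 2 of 11 tested death effectors and BH3-only genes were higher, BAX (0.37) and BNIP3 (0.49), and 1 was lower, BID (-0.35). Of 5 survival members 2 were higher, MCL1 (0.17) and BCL2L2 (0.20), and 1 was lower, BCL2L1 (-0.25, with 43.0% of its exon bases overlapping another gene). Without untreated replicate 3 or palmitate replicate 1 or 3, and with library sizes alone, 1 survival member was higher. Respiratory chain subunits encoded in the nucleus had 8 higher and 0 lower of 35 in complex I and 15 and 0 of 36 in complexes II to V, counts of 3 and 7 with library sizes alone. Without any 1 untreated library or palmitate replicate 3, 5 complex I subunits were higher, and without palmitate replicate 3 the other complexes had 10 higher and 1 lower. The deposited table holds 0 counts for genes of the mitochondrial genome in every library, so it gives no reading of their expression.

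Among the genes that fell, the largest change with a mean of at least 5 CPM was in AFAP1L2 (chromosome 10, 114294824 to 114404756), an adaptor that binds SRC and actin-linked proteins. It stood at 18.9, 21.4 and 22.2 CPM without and at 4.33, 3.44 and 2.85 CPM with palmitate, a change of -2.56 (SE 0.14, adjusted p = 5.05e-11). ITGB4 (chromosome 17, 75721328 to 75757818), the integrin beta-4 chain that binds laminin in hemidesmosomes, had 119, 130.0 and 134 CPM and then 50.3, 56.4 and 50.5 CPM (-1.29, SE 0.05, adjusted p = 1.18e-12). Every palmitate library lay below every untreated one in both genes, which the choice of the 12 largest falls required. The antisense transcript HNRNPU-AS1 (-2.08), the transglutaminase subunit F13A1 (-1.61), SHISAL1 (-1.58), the cystatin CST1 (-1.56), ZNF250 (-1.41), CRIP2 (-1.34), the TEAD cofactor VGLL3 (-1.32), SETBP1 (-1.30), CREB3L1 (-1.21) and S100A4 (-1.21) complete the 12 largest falls. Reads of HNRNPU-AS1 and of the gene it runs against cannot be told apart, since no strand setting was given in the sources used here. The 12 largest rises hold 2 genes of no list described above: AQP3, a water and glycerol channel, from 10.8, 8.22 and 9.25 to 26.0, 24.9 and 18.8 CPM (1.31), and AC120194.1, whose call at 1.33 was lost with DESeq2 and without palmitate replicate 1. The latter had 96, 55 and 8 counts in untreated and 154, 141 and 107 in palmitate libraries. Its change ranged from 0.803 to 2.11 over the alternatives run.

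Cell adhesion and matrix genes were lower. Of 20 tested integrins and laminins 12 were lower and 2 higher, with a median of -0.23. After ITGB4 these include LAMB1 (-0.62), LAMB2 (-0.29) and ITGA6, the partner of ITGB4, from 300, 310 and 294 to 235, 227 and 228 CPM (-0.39). Collagens had 7 lower and 1 higher of 16, a median of -0.23, with COL5A1 at -0.81, COL6A2 at -0.37 and COL6A1 at -0.27, while COL7A1 rose by 0.80. Matrix glycoproteins had 9 lower and 2 higher of 21, a median of -0.27: THBS1 fell by 0.54, FN1 by 0.41, HSPG2 by 0.35 and SPARC by 0.29, and the crosslinking enzyme LOX rose by 0.44. The fibroblast markers given above were also lower with palmitate, and their part in these counts was not tested. COL1A1 is both a collagen of this list and a fibroblast marker and did not pass the test (-0.32, adjusted p = 0.0565), and DCN and LUM, which define fibroblasts, had at most 2 counts in a group. Of 19 proteolysis genes 4 were higher and 6 lower, with TIMP3 at -0.83 and the plasminogen activator PLAT at -0.63.

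TGF-beta signals through receptor kinases to SMAD factors. Of 16 tested ligands, receptors and SMADs 8 were lower and 1 higher: the activin chain INHBB, from 27.4, 29.7 and 25.1 to 13.5, 16.1 and 15.5 CPM (-0.86), TGFBR3 (-0.59), TGFB2 (-0.37) and TGFBR1 (-0.28). Of 18 targets 11 were lower and 1 higher, with a median of -0.31. TGIF1, a SMAD corepressor, stood at 39.0, 37.6 and 38.4 CPM without and 23.8, 24.6 and 24.6 CPM with palmitate (-0.66), and BHLHE40 and ID1 fell by 0.34 and 0.32. YAP and TEAD targets had 10 lower and 2 higher of 26, with CCN1 from 2272, 2317 and 2315 to 1867, 1887 and 1869 CPM (-0.30) and F3 at -0.41. Of 35 actomyosin genes 15 were lower and 3 higher, with MYH10 at -0.56 and MYL12A at -0.31. Of 12 EMT genes 6 were lower and 0 higher, led by S100A4 (-1.21) and SNAI2 (Slug), from 7.04, 9.43 and 8.19 to 3.35, 3.67 and 4.16 CPM (-1.14). VIM, vimentin, had 3891, 3970 and 4049 CPM and then 3616, 3616 and 3484 CPM (-0.15, with 24.4% of exon bases shared with another gene).

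Epithelial junction and keratin genes were lower too, 10 of 20 against 1 higher, with a median of -0.30. KRT80 stood at 42.2, 43.7 and 47.0 CPM and then at 23.8, 25.5 and 22.9 CPM (-0.88), and KRT19, KRT8, JUP and CLDN4 fell by 0.62, 0.37, 0.44 and 0.36. Of 8 tested S100 calcium-binding proteins 7 were lower and 0 higher, with a median of -0.41. S100A6 went from 597, 614 and 584 to 419.7, 423 and 452 CPM (-0.47), S100A10 from 523, 519 and 506 to 396, 405 and 419.9 CPM (-0.34), and S100A3 changed by -1.43. Without untreated replicate 2 or palmitate replicate 2, 4 S100 genes were lower. IGFBP4, a binding protein of insulin-like growth factors and the gene with the highest mean CPM (not scaled for length) among those that fell by at least 1.5-fold, went from 1229, 1238 and 1250 to 821, 840 and 803 CPM (-0.59, SE 0.02, adjusted p = 4.76e-13).

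Genes that mark lung spread of MDA-MB-231 cells went both ways, 5 higher and 5 lower of 14. ANGPTL4, PTGS2, MMP1 and KYNU, a kynurenine enzyme that went from 23.8, 26.9 and 25.2 to 57.7, 56.1 and 49.7 CPM (1.11), were higher. TNC, SPARC and ID1 fell by 0.29, 0.29 and 0.32. Interferon-stimulated genes had 3 higher and 10 lower of 30, with MX1 from 5.84, 5.07 and 6.24 to 2.80, 2.48 and 2.79 CPM (-1.08) and IRF9 at -0.54. The count was 2 and 6 without untreated replicate 2. MHC class I genes had 3 higher and 0 lower of 16, with TAPBP at 0.41. The 18.8% higher is near the 16.4% of all genes tested, so it does not set this group apart. Without palmitate replicate 2 the count was 1 and 0, and with library sizes alone 1 and 1. Among metallothioneins MT1E (0.42) and MT1X (0.28) rose. Clock genes had 0 higher and 4 lower of 15, namely TEF (-0.74), CRY2 (-0.58), BHLHE40 (-0.34) and CRY1 (-0.31).

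Whether control cells answered palmitate to another extent than ACSL5 knockdown cells was tested as an interaction over the 12 libraries. The hairpin against ACSL5 left 11.2 ± 1.16 CPM of ACSL5 without and 15.3 ± 2.19 CPM with palmitate (SD, n = 3 each). The interaction was called for 2139 of 14706 genes (14.5%), with 1052 positive and 1087 negative differences of the knockdown response minus the control response. Each response has its own untreated libraries, with no library shared. Changes of the control cells are again from the 6-library fit and the rest from the 12-library fit. The rises of several stress and inflammatory genes were larger in control cells: for CXCL8 the change was 4.10 in control and 1.88 (SE 0.13) in knockdown cells (difference -2.22, SE 0.21, adjusted p = 2.96e-07), and for PTGS2 2.99 and 1.70 (difference -1.29). DUSP1 rose by 1.55 in control cells and had a value of 0.17 in knockdown cells (difference -1.38, SE 0.06, adjusted p = 3.84e-12). For TNFAIP3 the values were 1.42 and -0.10 (difference -1.53), for EGR1 1.31 and 0.31 (-1.01), for SQSTM1 1.04 and 0.30 (-0.75), for FTL 0.87 and 0.12 (-0.74) and for TXNRD1 0.57 and 0.09 (-0.47). Each of these genes thus changed more in control than in knockdown cells.

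Among lipid genes, PPAR targets included, the called differences went both ways. ANGPTL4 changed by 3.00 in control and 3.07 in knockdown cells (difference 0.06, SE 0.23, adjusted p = 0.901), CPT1A by 1.29 and 1.42 (difference 0.13, SE 0.07) and ACADVL by 0.76 and 0.80 (difference 0.04, SE 0.05). These 3 differences did not pass the test, which does not show the responses to be equal. PDK4 rose more in knockdown cells, 1.77 against 2.90 (difference 1.13, SE 0.17, adjusted p = 6.55e-05), and PLIN2 less, 1.03 against 0.77 (difference -0.26, not called without untreated control replicate 1). G0S2, an inhibitor of the lipase ATGL, changed by 0.96 in control and 0.21 in knockdown cells (difference -0.75, SE 0.10, adjusted p = 1.81e-05). GDF15 (difference -0.04, SE 0.26) and SOCS3 (-0.08, SE 0.08) did not pass. Falls differed as well: ITGB4 changed by -1.29 in control and -0.36 in knockdown cells (difference 0.93), and AFAP1L2 by -2.56 and -0.87 (1.68). ERBB3, MX1 and CDS1 had values of opposite sign, -1.28 and 0.65, -1.08 and 0.29, and -0.54 and 1.30. DSP, desmoplakin, had 67.0, 63.3 and 64.4 CPM and then 60.2, 65.8 and 71.4 CPM in control cells, where it did not pass the test (0.02), and changed by 1.32 in knockdown cells.

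**Figure D4:**
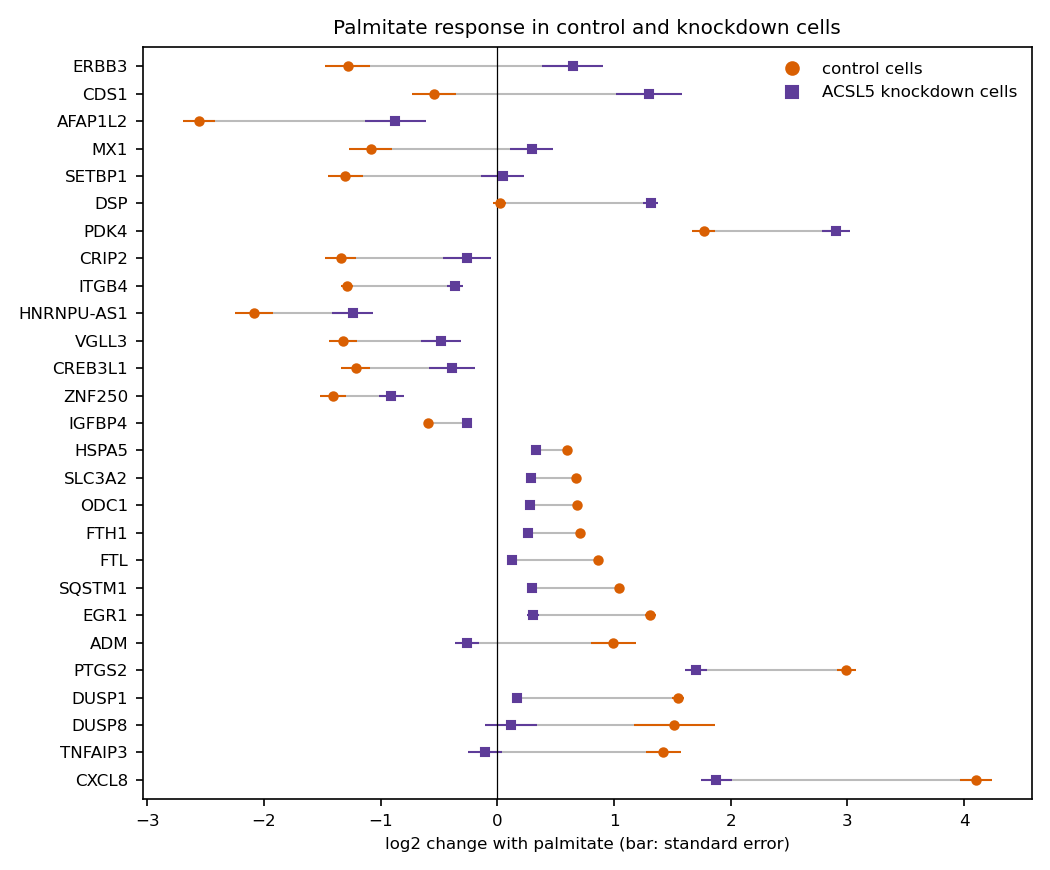
Change with palmitate (log2, x axis) in control cells (orange circles, 6-library fit) and ACSL5 knockdown cells (purple squares, 12-library fit) for 27 genes whose interaction passed the test, with bars of 1 standard error and a grey line joining both values of a gene. CXCL8, PTGS2, DUSP1 and TNFAIP3 rose more in control cells, PDK4 rose more in knockdown cells (2.90 against 1.77), and ITGB4 and AFAP1L2 fell more in control cells.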

How the data were processed

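The authors' deposited table holds raw read counts for 57730 genes in 12 polyadenylated RNA libraries, made with the VAHTS Universal V6 kit per the labels' protocols. The submitters' processing notes name the genome build GRCh38, the read trimmer fastp (0.22.0), the aligner HISAT2 (2.1.0) and the counter featureCounts. Neither annotation release nor strand setting was given in the sources used here. Current symbols were matched by Ensembl ID for 51928 genes, coordinates and overlaps come from GENCODE 29, and promoter windows from RefSeq (GRCh38.p14).

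The 6 libraries were fitted in edgeR 4.0.16 (R 4.3.3) after filterByExpr, with TMM factors from 0.9819 to 1.022, quasi-likelihood tests and Benjamini-Hochberg adjustment over all 14071 genes tested (threshold 0.05). SE is the absolute log2 change divided by the square root of F. The interaction came from the same test over 12 libraries. Sums of CPM over a gene group were compared by 2-sided exact permutation. Scripts were tested on simulated data. DESeq2 1.42.0, other scalings and filters, a replicate block and leaving out libraries were tried. Replicates of a group differed by more than counting noise, with a chi-square of at least 2.21 per gene, and none was counted as a duplicate.

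Gene groups (33 lists in 87 roles) and the members described were chosen with earlier results of these data known, so none is independent support. Named genes are the 12 largest rises and falls with a mean of at least 5 CPM and no overlap, up to 6 called members per role with the smallest p, rate-setting members, the 6 largest interactions per direction and the 8 genes with the highest mean CPM changed at least 1.5-fold. Other genes named were chosen after their values were seen.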

Additional observations from a re-analysis of the deposited data

Results flagged for a closer look

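The response to palmitate differed between control and ACSL5 knockdown cells, by edgeR's interaction test, for 2139 genes. Values are the knockdown response minus the control response on the log2 scale, from the fit over 12 libraries, for genes described above that passed the adjusted threshold.

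Negative differences, in genes that rose in control cells, were found for CXCL8 (-2.22), TNFAIP3 (-1.53), DUSP8 (-1.40), DUSP1 (-1.38), PTGS2 (-1.29), ADM (-1.25) and EGR1 (-1.01). Smaller ones were found for SQSTM1 (-0.75), FTL (-0.74), FTH1 (-0.45), ODC1 (-0.40), SLC3A2 (-0.39) and HSPA5 (-0.27). DUSP8 rests on 47 counts without and 135 with palmitate in control cells.

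Positive differences in genes that fell in control cells were found for ERBB3 (1.93), CDS1 (1.84), AFAP1L2 (1.68), MX1 (1.38), SETBP1 (1.35), CRIP2 (1.09), ITGB4 (0.93), HNRNPU-AS1 (0.84), VGLL3 (0.84), CREB3L1 (0.82), ZNF250 (0.50) and IGFBP4 (0.33). Positive differences were also found for DSP (1.29), which did not pass the test in control cells, and for PDK4 (1.13), which rose in both kinds of cells. Calls of 4 of these genes were lost when single libraries were left out. For VGLL3 this was knockdown palmitate replicate 2 and for HNRNPU-AS1 that library, untreated control replicate 1 and control palmitate replicates 2 and 3. CREB3L1 lost its call without control replicate 2 or 3, control palmitate replicate 2, knockdown replicate 1 or 3 or knockdown palmitate replicate 2. ZNF250 lost it without control replicate 3, control palmitate replicate 2 or 3, knockdown replicate 3 or knockdown palmitate replicate 1 or 3.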

How the results depend on the processing

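All counts of called genes kept within 1.5 times their value under every alternative run, apart from the 2-fold counts: with at least 5 CPM in 3 libraries 23 genes were at least 2-fold higher and 36 lower, since that filter drops low genes, and with the DESeq2 Wald test 57 were at least 2-fold higher (the cause was not tested). Leaving out 1 library at a time gave between 3510 and 3987 calls, 1791 to 2063 higher, 1677 to 1937 lower, 64 to 85 at least 2-fold higher, 142 to 187 at least 2-fold lower, and 1657 to 2138 interaction calls. Of 456 named genes, the call was lost for 23 with library sizes alone, 17 with DESeq2, 7 with all 12 libraries in 1 fit and 18 to 24 when a library was left out, and no called gene changed sign. No shared effect of the replicate number was seen: deviations of same-numbered samples correlated at -0.000787, 0.00758 and -0.0356. Differently numbered samples lay between -0.028 and 0.0292. Such values cannot show whether the samples were paired. With the replicate number as a block 4227 genes were called and 6 named genes lost their call. Depth limits the precision of low genes: CXCL1, IL1B and NUPR1 rest on 18, 24 and 31 counts over the untreated libraries. With 3 libraries a group, sums over genes cannot reach a permutation p under 0.1.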

Other observations

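Gene families that share a symbol root, chosen after their values were seen, are counted here with no test, beside 16.4% higher and 15% lower of all genes tested. Of 395 tested zinc finger (ZNF) genes, mostly DNA-binding repressors, 86 were lower and 19 higher, with a median change of -0.15, and with library sizes alone 113 and 12. The largest were ZNF250 (-1.41, SE 0.11), ZNF566 (-1.06, SE 0.15) and ZNF555 (-0.92, SE 0.14). Kelch-like genes, which give substrate adaptors of ubiquitin ligases, had 7 lower and 1 higher of 23, led by KLHL28 (-0.62).

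Genes that host small nucleolar RNAs in their introns (SNHG) had 13 higher and 0 lower of 21, with a median of 0.33, led by SNHG1 (0.76, SE 0.05), SNHG12 (0.62) and SNHG3 (0.59). Of 35 DEAD-box RNA helicases 18 were higher and 2 lower: DDX28 (0.76), DDX39A (0.60) and DDX10 (0.46) rose, and DDX17 fell by 0.33. Mitochondrial ribosomal proteins had 25 higher and 0 lower of 79, with a median of 0.11, and with library sizes alone 12 and 1. By gene type, 34.4% of 12181 tested protein-coding genes were called. The share was 19.7% of 137 processed transcripts, 13% of 361 long intergenic and 8.52% of 493 antisense transcripts. Types were not matched for level, so these shares do not compare how strongly they responded.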
